A study of Homo sapiens with 21 samples.

Results

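The cancer-testis and germline genes described here are 33 genes chosen by name and then looked up in the count files through their Ensembl identifiers. All 33 were found among the 53515 genes of the files. Of these, 17 lie on the X chromosome and 16 on autosomes. They comprise 11 genes of the MAGE family, 6 other X-linked genes, 3 autosomal antigens or surface proteins and 13 autosomal genes that act in germ cell RNA control, transposon control, meiosis or germ cell fate.

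Cancer-testis genes are transcribed in the germ cells of the testis and are silent in most other adult tissues, where DNA methylation of their promoters is a known part of their silencing. In many tumours some of them are transcribed again, and because the immune system rarely meets their products elsewhere, several are used as tumour antigens. The X-linked ones mostly sit in families of near-copies such as MAGEA and PAGE, whereas the autosomal ones are mostly single genes with defined tasks in spermatogenesis.

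RNA was sequenced from 17 human cancer cell lines in 21 libraries, 7 parental lines and 10 lines grown from them under rising drug doses until they were resistant. The liver cancer line HepG2 gave HepG2S1 and HepG2S3, which resist the kinase inhibitor sorafenib. The pancreatic cancer line PancVB gave PancB1Q and PancB1V, which resist 5-fluorouracil, an inhibitor of thymidylate synthase. Among the lung cancer lines, HCC4006P1 gave HCC4006ER, which resists the EGFR inhibitor erlotinib, while HCC4006P2 gave HCC4006GR and HCC827P gave HCC827GR, both resistant to the EGFR inhibitor gefitinib. Of the ovarian cancer lines, UWB1.289 gave U10 and U100, which resist the PARP inhibitor olaparib, and IGROV-1 gave IGROV-1/CDDP, which resists cisplatin. The study describes the resistant lines of liver, pancreas and lung as having passed through a full epithelial-to-mesenchymal transition (EMT) and those of ovary through a partial one. There were 2 libraries for HepG2, its derivative HepG2S3, HCC4006P1 and its derivative HCC4006ER, and 1 library for each of the remaining 13 lines. Each resistant line is a single population selected in culture. Nothing in the labels says that libraries of 1 line came from separate cultures, so p-values measure the spread between libraries, which may be technical.

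Libraries held 9851195 to 36639473 counts on genes (median 19498932). Values are CPM, counts scaled by each library's sum over genes to a common depth, averaged over the libraries of a line. A gene was taken as on at 1 CPM or more and as off below it, and a switch is a change of that state from the parental to the resistant line. The smallest count taken as detected, 3, corresponds to 0.0819 CPM at the greatest depth, in HepG2, and to 0.305 CPM at the lowest, in HepG2S1. In HCC4006P1 replicate 1 the counts end within chromosome 7, and 18 of the 33 genes, the 17 X-linked ones and PIWIL2, have no value there. For these genes HCC4006P1 is represented by replicate 2 alone. The CPM of all other genes in replicate 1 are raised by 22.1%, since its total lacks the missing genes. This also raises the HCC4006P1 means that include it.

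The labelled tissues were checked against marker genes, and 4 lines went against their label, HepG2S3 only in part. The 5 liver markers ALB, AFP, APOA1, APOB and TTR summed to 20590 and 38174 CPM in the libraries of HepG2, but to 0.305 CPM in HepG2S1 and to between 25.6 and 27.3 CPM in HepG2S3. ALB and AFP were listed at 0 in HepG2S1. In HepG2S3, ALB (9.17 CPM), AFP (7.47 CPM) and APOB (9.25 CPM) were on, far below HepG2, and APOA1 and TTR were off. HENMT1, which methylates the ends of piRNAs, was at 0 counts in both HepG2 libraries and at 27.1 CPM in HepG2S1 and 36.5 and 39.1 CPM in HepG2S3. MAGED1, a MAGE gene of somatic tissues, went the other way, from 181 and 86.4 CPM in HepG2 to 0.508 CPM in HepG2S1 and 0.281 and 0.522 CPM in HepG2S3. Whether the lines labelled HepG2S1 and HepG2S3 descend from HepG2 was not tested, and every difference between them and HepG2 below is to be read beside these values. The 5 lung markers summed to at most 0.695 CPM in HCC4006P1 and 0.616 CPM in HCC4006ER, with none of them on, against 296 CPM in HCC4006P2, the other stock labelled HCC4006. Of the 4 ovarian and tubal markers, PAX8 was at 357 to 664 CPM in all 5 ovarian lines and MUC16 was on in the 3 lines of the UWB1.289 family, but MUC16 was off in both IGROV-1 lines and WT1 and ESR1 were off in all 5. The 4 pancreatic duct markers were on in all 3 pancreatic lines, as in most other lines here. Of the 6 spermatid markers, only ACRV1 reached 1 CPM in any line (up to 2.25 CPM in PancB1V). Of the 6 markers of pluripotent germ cells, 5 were on in at least 1 line and NANOG in none. POU5F1 was highest in IGROV-1 (54.9 CPM, and 4.79 CPM in IGROV-1/CDDP), as was LIN28A (52.8 and 16.1 CPM), which is named here because of its values. KIT was highest in HCC4006P2 (125 CPM), and so was TFAP2C (62.8 CPM). NANOS3 reached 1.07 CPM, in U10. The part of such cells or states in the levels of the 33 genes was not tested.

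Promoter sequences are shown for 3 genes that were high in HepG2S1 and HepG2S3 and low in HepG2, and for MAGEB1, which lies near MAGEB2 and had no count anywhere. They are the 250 bases before the start of the gene in RefSeq on GRCh38.p14, in the direction of transcription, with CpG dinucleotides, the sites of DNA methylation, in capitals. MAGEB2 is at chrX:30215313-30215562 on the plus strand, PRSS21 at chr16:2816987-2817236 on the plus strand, PRAME at chr22:22559266-22559515 on the minus strand and MAGEB1 at chrX:30243481-30243730 on the plus strand.
MAGEB2: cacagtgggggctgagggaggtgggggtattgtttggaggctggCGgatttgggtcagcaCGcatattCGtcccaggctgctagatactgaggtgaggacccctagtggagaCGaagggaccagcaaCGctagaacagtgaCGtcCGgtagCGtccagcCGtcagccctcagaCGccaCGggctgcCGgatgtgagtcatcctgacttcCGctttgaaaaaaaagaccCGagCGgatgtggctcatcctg
PRSS21: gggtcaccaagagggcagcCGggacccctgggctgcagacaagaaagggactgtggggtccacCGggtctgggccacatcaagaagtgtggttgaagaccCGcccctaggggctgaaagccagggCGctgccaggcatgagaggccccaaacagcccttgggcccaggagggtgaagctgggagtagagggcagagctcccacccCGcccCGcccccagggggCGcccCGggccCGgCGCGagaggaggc
PRAME: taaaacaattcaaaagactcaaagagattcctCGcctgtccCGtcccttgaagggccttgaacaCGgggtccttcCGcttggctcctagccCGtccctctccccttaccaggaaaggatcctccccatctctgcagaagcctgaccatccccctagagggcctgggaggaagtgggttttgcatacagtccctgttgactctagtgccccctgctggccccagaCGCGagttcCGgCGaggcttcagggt
MAGEB1: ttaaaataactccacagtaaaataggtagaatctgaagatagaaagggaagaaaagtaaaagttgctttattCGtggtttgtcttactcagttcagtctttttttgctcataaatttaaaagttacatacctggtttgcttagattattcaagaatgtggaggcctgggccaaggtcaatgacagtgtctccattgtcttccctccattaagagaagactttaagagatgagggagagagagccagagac

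The MAGEB2 window held 15 CpGs, that of PRSS21 11, that of PRAME 9 and that of MAGEB1 1. Windows of this length were found for 28 of the 33 genes, and MAGEA1, MAGEA10, CTAG2, PIWIL2 and HORMAD1 were not matched. The 28 genes had a median of 12 CpGs (range 0 to 51), against a median of 11 (quartiles 3 and 23) over 27305 promoters. The 14 X-linked genes ranged from 1 to 18 CpGs and the 14 autosomal ones from 0, in DDX4, to 51, in MAEL. The 13 genes that were on in at least 1 line had a median of 15 CpGs and the 15 that were on in none a median of 9, given here as a description. The core of ETS factor sites, CCGGAA on either strand, occurred in 7 of the 28 windows (25%) and in 14.8% of all promoters. It was present in those of PRAME, MAGEA3 and MAGEA6, and not in those of MAGEB2, PRSS21 and MAGEB1. The E-box CACGTG occurred in 5 (17.9%) and in 6.49% of all promoters.

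**Figure D1:**
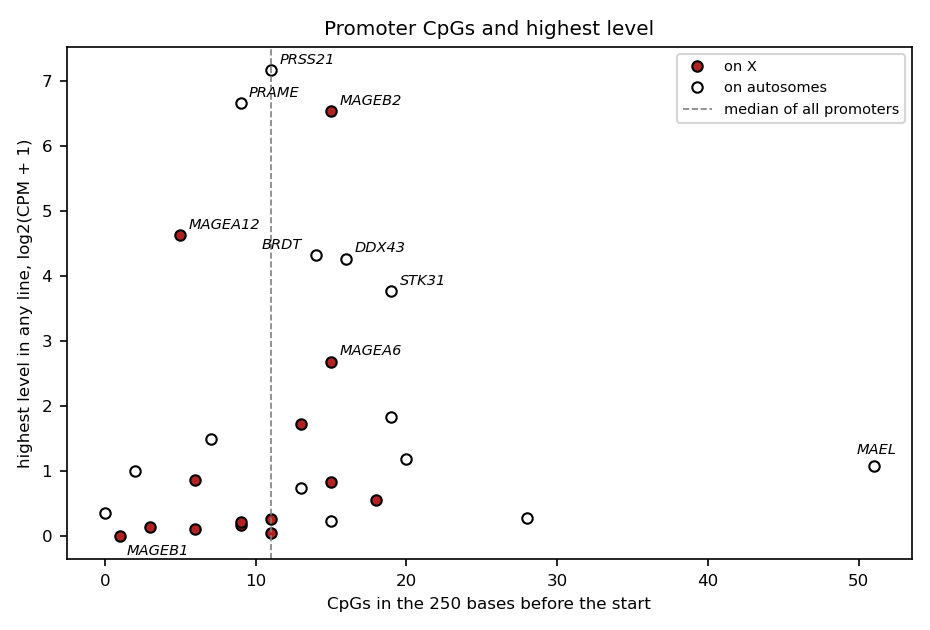
Each point is 1 of 28 genes, placed by the number of CpGs in the 250 bases before its start (horizontal axis) and by its highest level in any of the 17 lines as log2(CPM + 1) (vertical axis), with X-linked genes filled and the median of all promoters, 11, dashed. PRSS21, PRAME and MAGEB2 sit at the top with 11, 9 and 15 CpGs, MAGEB1 lies at 1 CpG and 0 CPM, and MAEL stands apart with 51 CpGs and a highest level of 1.1 CPM.

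Most of the 33 genes were off in most lines. Of the 561 combinations of gene and line, 79 were on, 294 had no count at all and 69 lay between 0.5 and 2 CPM, near the threshold. Of the 33 genes, 15 were on in at least 1 line (5 X-linked and 10 autosomal), 18 were on in none, and 0 were on in all 17. The share on per line ran from 6.06% in HepG2, PancVB and PancB1Q to 24.2% in HepG2S3, while 61.2% to 68% of all protein-coding genes were on. Just inside the threshold were SYCP3 in PancVB at 1.06 CPM and MAGEB2 in PancB1Q at 1.09 CPM, and just outside it TEX101 in U100 at 0.992 CPM and SYCP3 in HepG2S3 at 0.977 CPM.

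**Figure D2:**
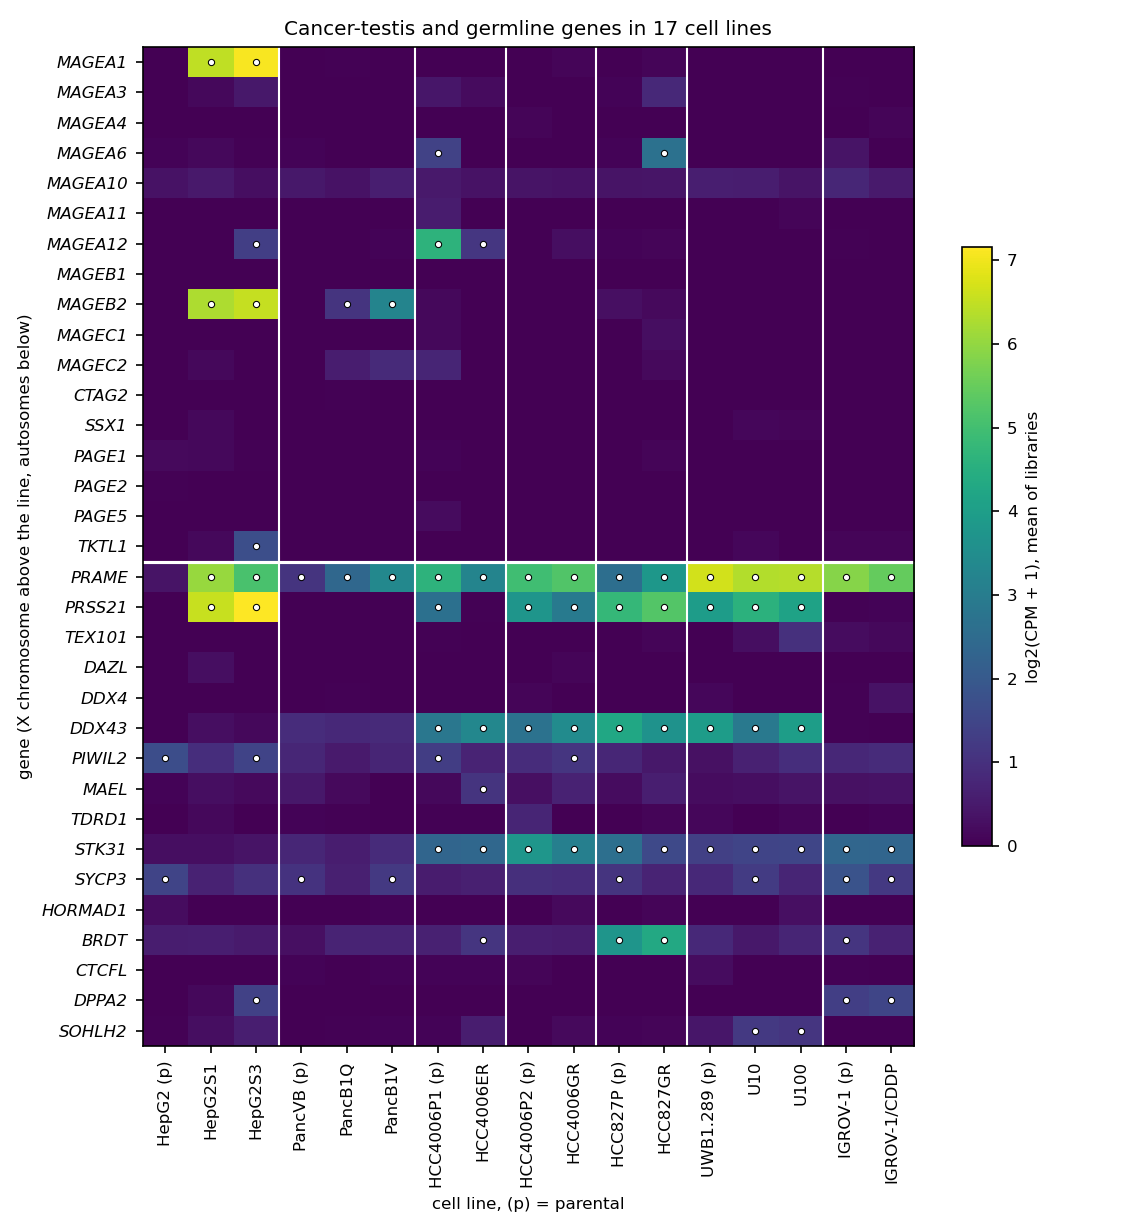
The heatmap gives log2(CPM + 1), averaged over libraries, for each of the 33 genes (vertical axis, X-linked genes above the white line) in each of the 17 lines (horizontal axis, parental lines marked p, families separated by white lines), and a white dot marks 1 CPM or more. The highest X-linked values are MAGEA1 and MAGEB2 in HepG2S1 and HepG2S3, followed by MAGEA12 in HCC4006P1 (23.6 CPM), MAGEB2 in PancB1V (8.38 CPM) and MAGEA6 in HCC827GR (5.4 CPM), whereas PRAME is on in 16 lines, STK31 in 11, PRSS21 in 10 and DDX43 in 9.

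Over the 10 pairs there were 20 switches on and 9 switches off, by 13 of the genes. Of the 20 switches on, 10 were by at least 2 on the scale of log2(CPM + 1), which understates changes of low genes, and they belonged to MAGEA1, MAGEB2, PRSS21, PRAME and MAGEA6. The counts were set against the same switches among all protein-coding genes that were off in the same parental line. HepG2S1 switched on 4 of 31 genes (12.9%, background 15.7%) and HepG2S3 7 of 31 (22.6%, background 14.7%). Counting only switches by at least 2, both had 4 of 31 (12.9%), against 8.54% in HepG2S1 and 8.61% in HepG2S3. PancB1Q switched on 1 of 31 (background 4.34%) and PancB1V 1 of 31 (7.74%). HCC4006ER switched on 2 of 26 (11.6%), HCC4006GR 1 of 29 (7.83%) and HCC827GR 1 of 27 (8.83%). U10 switched on 2 of 29 (5.75%), U100 1 of 29 (8.42%) and IGROV-1/CDDP 0 of 28 (5.56%). Apart from HepG2S3 and U10, the share of these genes that switched on was below the background, and nothing particular to them is read from counts this small.

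Of the switches by at least 2, PancB1V (background 2.17%) and HCC827GR (2.02%) had 1 each, which is 3.23% and 3.7% of the genes off in the parent. The remaining lines had none, where the background was 1.37% in PancB1Q, 3.87% in HCC4006ER, 1.85% in HCC4006GR, 0.593% in U100, 0.734% in U10 and 1.07% in the cisplatin pair.

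Few of the genes were on in a parental line and could switch off. HepG2S1 lost both of the 2 that were on in HepG2, PIWIL2 and SYCP3 (background 9.63%), HepG2S3 lost SYCP3 (9.68%), and PancB1Q lost SYCP3 of 2 (5.8%). HCC4006ER lost MAGEA6, PRSS21 and PIWIL2 of 7 (4.43%), HCC827GR SYCP3 of 6 (2.8%) and IGROV-1/CDDP BRDT of 5 (4.18%). None switched off in PancB1V (4.36%), HCC4006GR (3.36%), U10 (3.18%) and U100 (1.39%). Apart from PRSS21, the genes that switched off were at 1.06 to 2.22 CPM in the parental line, near the threshold. The background covers protein-coding genes on at any level, so nothing particular to the 33 genes is read from these shares. Of the 9 switches off, 1 was by at least 2, that of PRSS21 in HCC4006ER (background 1.61%). For the other lines the background of so large a loss was 5.81% (HepG2S1) and 5.76% (HepG2S3) for liver, 0.626% (PancB1Q) and 0.618% (PancB1V) for pancreas, 0.314% (HCC4006GR) and 0.382% (HCC827GR) for lung, and 0.161% (U10), 0.0402% (U100) and 0.892% (IGROV-1/CDDP) for ovary. The median difference of the 33 genes was between 0.00 and 0.01 in every pair, as it was 0.00 for all protein-coding genes. Most of the 33 genes were off on both sides, which holds this median near 0 whatever the others do. Over all genes on in either line of a pair, the median ran from -0.12 in PancB1Q to 0.28 in HepG2S3.

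**Figure D3:**
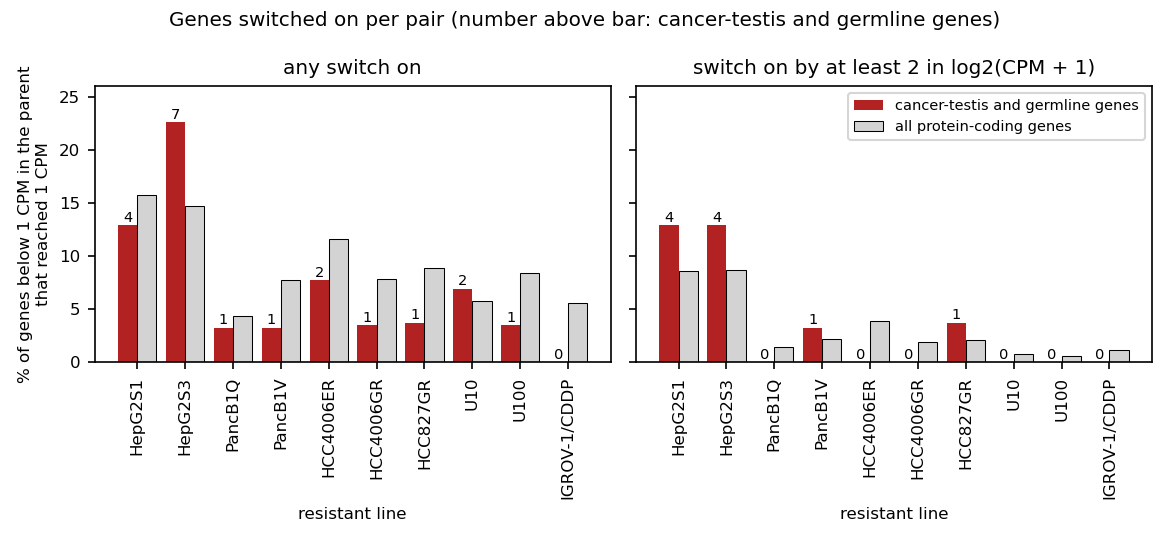
Bars give the percentage of genes below 1 CPM in the parental line that reached 1 CPM in the resistant line (vertical axis) for each of the 10 resistant lines (horizontal axis), with the cancer-testis and germline genes in red, their number above the bar, and all protein-coding genes in grey. On the left all switches count and on the right those by at least 2 in log2(CPM + 1), where HepG2S1 and HepG2S3 have 4 genes each, PancB1V and HCC827GR 1 each and the other 6 lines 0.

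MAGE proteins of the A, B and C groups bind ubiquitin ligases of the RING type and are among the best known tumour antigens. MAGEA1 (chromosome X, 152481520 to 152486116 on GRCh37, the build of the files) had 0 and 0.0287 CPM in the HepG2 libraries, the latter a single count, 87.7 CPM in HepG2S1 and 123 and 146 CPM in HepG2S3. The levels of HepG2 did not overlap with those of either resistant line. The ratio was 6113-fold in HepG2S1 (95% counting interval 1122 to 247927) and 9388-fold in HepG2S3 (1725 to 379677), and intervals here and below cover counting error only. In the remaining 14 lines MAGEA1 did not exceed 0.0662 CPM. Per kilobase of exon it reached 78.7 CPM in HepG2S3, the highest of the 33 genes, ahead of PRSS21 with 72.2 and MAGEB2 with 56.8.

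MAGEB2 (chromosome X, 30233680 to 30238206) was at 0 in both HepG2 libraries, at 76.2 CPM in HepG2S1 and at 83.6 and 99 CPM in HepG2S3. This is at least 908-fold higher in HepG2S1 and at least 1087-fold in HepG2S3, taking 3 counts per HepG2 library as the limit. It was also the one MAGE gene that switched on in the pancreatic lines, from 0 in PancVB to 1.09 CPM in PancB1Q (Wilson interval 0.765 to 1.54) and 8.38 CPM in PancB1V (7.31 to 9.59), at least 7.86-fold and at least 60.6-fold higher. PancB1V was 7.72-fold above its sister PancB1Q (5.27 to 11.6), with 1 library each. On the scale of log2(CPM + 1) the difference was 1.06 in PancB1Q and 3.23 in PancB1V. MAGEB2 was at 0 in HCC4006ER, HCC4006P2, HCC4006GR and all 5 ovarian lines. MAGEB1, farther along the same strand (30261832 to 30270157), had 0 counts in all 20 libraries with values. The upper Wilson limits were 0.105 CPM in HepG2 replicate 1, the deepest library, to 0.39 CPM in HepG2S1. It overlaps MAGEB4 on the same strand, and reads that fall on both are not counted.

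MAGEA12, MAGEA6 and MAGEA3 lie within one stretch of the X chromosome (151867214 to 151938240). MAGEA3 and MAGEA6 are near-copies of each other, as MAGEA12 and MAGEA2 are, and reads that match both copies are not counted, so that the levels of these genes are uncertain. MAGEA12 was highest in HCC4006P1, at 23.6 CPM in replicate 2, and was 1.11 and 1.28 CPM in HCC4006ER, 19.7-fold lower (14.6 to 27.2). In the liver family it was at 0 in both HepG2 libraries and in HepG2S1 and at 1.66 and 1.4 CPM in HepG2S3, at least 18.2-fold higher. The other stock of HCC4006, HCC4006P2, had 0 counts of it, at least 107-fold below HCC4006P1.

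MAGEA6 was at 1.64 CPM in HCC4006P1 and at 0 in both HCC4006ER libraries, at least 10.7-fold lower, but rose from 0.0577 CPM (1 count) in HCC827P to 5.40 CPM in HCC827GR, 93.7-fold (16.4 to 3743). That switch in HCC827GR was by 2.60 on the log2 scale, with 1 library a line. MAGEA3 stayed below 1 CPM everywhere (highest 0.772 CPM, in HCC827GR too). CSAG1, whose start lies beside that of MAGEA12 (151903228 to 151909518), had 7.90 CPM in HCC4006P1, 0.455 and 0.770 CPM in HCC4006ER, 0 in both HepG2 libraries and 1.31 CPM in each HepG2S3 library.

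The other MAGE genes stayed off in all lines. MAGEA10 was counted in all 20 libraries with values but only at 0.192 to 0.691 CPM per line. MAGEC2 reached 0.805 CPM in PancB1V and 0.490 CPM in PancB1Q from 0 in PancVB, and 0.667 CPM in HCC4006P1. MAGEA11 (highest 0.462 CPM), MAGEC1 (0.193) and MAGEA4 (0.0791) were barely counted.

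Of the 6 other X-linked genes only TKTL1, a relative of the transketolase of the pentose phosphate pathway, was on in any line. It had 2.06 and 2.55 CPM in HepG2S3, 0 in both HepG2 libraries and 0.102 CPM (1 count) in HepG2S1. The antigens CTAG2, SSX1, PAGE1, PAGE2 and PAGE5 were on in no line, with highest levels between 0.028 and 0.154 CPM, and CTAG2 had 1 count over all libraries.

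**Figure D4:**
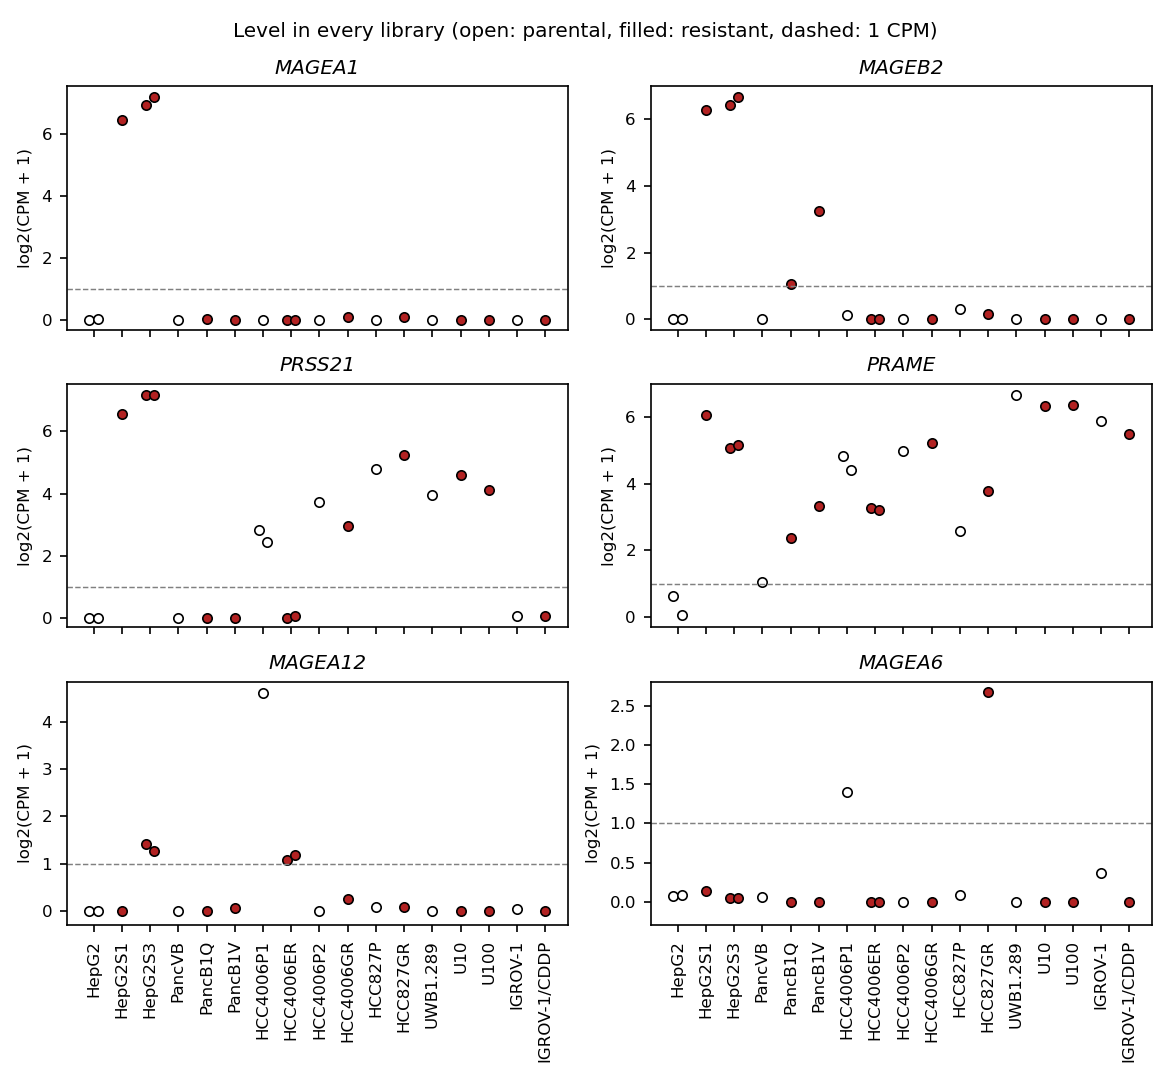
Each point is 1 library, with lines along the horizontal axis and log2(CPM + 1) on the vertical axis, open for parental and filled for resistant lines, and the dashed line marks 1 CPM; X-linked genes have no point for HCC4006P1 replicate 1. MAGEA1, MAGEB2 and PRSS21 are near 0 in both HepG2 libraries and above 6 in the 3 libraries of HepG2S1 and HepG2S3, MAGEB2 also rises in PancB1V, PRAME is spread over all families, MAGEA12 is highest in HCC4006P1 and MAGEA6 in HCC827GR.

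PRAME, a tumour antigen that acts as substrate receptor of a ubiquitin ligase, was the most widely transcribed of the 33 genes. It was on in 16 of 17 lines, with a median of 30.5 CPM over lines. HepG2 was the exception, with 0.546 and 0.0574 CPM in its 2 libraries (20 and 2 counts), and PancVB was next with 1.10 CPM. The highest levels were in UWB1.289 (100 CPM, Wilson interval 94.7 to 106), U100 (81.2, 76.5 to 86.3) and U10 (79.3, 74 to 84.9), of which U10 and U100 did not differ beyond counting error (ratio 1.02, 0.935 to 1.12). PRAME was higher in 6 resistant lines than in their parents and lower in 4, in each case beyond counting error. It rose to 65.4 CPM in HepG2S1, 217-fold (139 to 341), and to 32.2 and 34.4 CPM in HepG2S3, 111-fold (71.3 to 173). These ratios depend on which HepG2 library is used, since the 2 differ beyond the counting intervals. Without HepG2 replicate 2 they were 120-fold in HepG2S1 (76.9 to 197) and 61.1-fold in HepG2S3 (39.4 to 100), and without replicate 1 they were 1139-fold (314 to 9426) and 581-fold (160 to 4796). The increases were 3.8-fold in PancB1Q, 8.2-fold in PancB1V (5.37 to 13.1), 2.58-fold in HCC827GR and 1.19-fold in HCC4006GR. It was lower in HCC4006ER, at 8.65 and 8.27 CPM against 27.1 and 20.1 CPM in HCC4006P1, and lower by 1.23-fold to 1.32-fold in the 3 ovarian resistant lines. A lncRNA on the opposite strand overlaps PRAME.

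PRSS21 (testisin, chromosome 16, 2867181 to 2876305) is a serine protease anchored on the surface of sperm. It had 0 counts in both HepG2 libraries, 93.4 CPM in HepG2S1 and 142 and 143 CPM in HepG2S3, at least 1112-fold and at least 1692-fold higher. In the erlotinib pair it went the opposite way, from 6.09 and 4.41 CPM in HCC4006P1 to 0 and 0.0514 CPM in HCC4006ER, 204-fold lower (36.4 to 8151). It was at 0 in the 3 pancreatic lines and at 1 count in each IGROV-1 line, and between 6.75 and 37.2 CPM in the other lung and ovarian lines. Among those it was higher in HCC827GR (1.40-fold) and U10 (1.60-fold) than in the parents, lower in HCC4006GR (12.2 to 6.75 CPM), and within counting error in U100. TEX101, another surface protein of germ cells, was off in all lines and reached 0.992 CPM in U100 from 0 in UWB1.289.

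The RNA helicase DDX43 was on in 9 lines, namely the lung lines and the UWB1.289 family, and in none of the liver, pancreatic or IGROV-1 lines. Its levels there ran from 5.51 CPM in HCC4006P2 to 18.2 CPM in HCC827P. Between parent and resistant line it was higher beyond counting error in HCC4006GR (1.80-fold, 1.36 to 2.41) and HCC4006ER (1.44-fold, 1.23 to 1.72). It was lower in HCC827GR (0.641-fold, 0.531 to 0.772) and U10 (0.445-fold, 0.330 to 0.595). The HCC4006ER libraries had 10.8 and 6.93 CPM, and those of HCC4006P1 had 7.91 and 4.41 CPM. The 7.91 CPM is of replicate 1, whose CPM are raised by 22.1%, so no overlap of the 2 lines is read from it. The raised value also lowers the 1.44-fold ratio. DDX43 overlaps CGAS and OOEP on the opposite strand. DAZL and DDX4, RNA-binding proteins that define the germ line, had highest levels of 0.203 and 0.277 CPM.

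Of the genes of piRNA and transposon control, STK31, a germ cell protein with a Tudor domain, was on in 11 lines, those of lung and ovary, with 12.6 CPM in HCC4006P2 at the top and 0.846 CPM as the highest level in liver and pancreas. It was lower in both gefitinib-resistant lines, at 7.55 CPM in HCC4006GR (0.601-fold, 0.47 to 0.766) and 1.99 CPM in HCC827GR, from 5.13 CPM in HCC827P (0.388-fold, 0.249 to 0.59). PIWIL2, one of the PIWI proteins that carry piRNAs, lay between 0.258 and 2.22 CPM in all lines. It had 2.89 and 1.55 CPM in HepG2, 0.914 CPM in HepG2S1 and 1.53 and 1.89 CPM in HepG2S3, where the 2 groups of replicated libraries overlapped. MAEL, needed for transposon silencing in the testis, was on only in HCC4006ER, at 1.11 and 1.08 CPM, with 0.107 and 0.103 CPM (2 counts each) in HCC4006P1. TDRD1, a Tudor protein of the same pathway, reached 0.661 CPM in HCC4006P2 and at most 0.102 CPM elsewhere.

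Among the meiotic genes, BRDT, the bromodomain protein of the testis, stood at 12.3 CPM in HCC827P and 19 CPM in HCC827GR (1.54-fold, from 214 and 296 counts) and at 1.15 CPM or less in every other line. In the erlotinib pair it had 0.641 and 0.513 CPM in HCC4006P1 and 1.06 and 1.23 CPM in HCC4006ER. SYCP3, of the lateral elements of the synaptonemal complex, stayed between 0.448 and 2.55 CPM, so that its 4 switches off and 1 on were all crossings of the threshold. It overlaps CHPT1 on the opposite strand. HORMAD1, of the meiotic chromosome axis, and CTCFL, the germ cell relative of CTCF, reached at most 0.229 and 0.172 CPM.

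DPPA2, a gene of pluripotent cells and the early germ line, had 1.72 and 1.5 CPM in HepG2S3 and was on in both IGROV-1 lines (1.53 CPM, and 1.82 CPM after cisplatin selection). It was at 0 in both HepG2 libraries and had 1 count in HepG2S1. MAGEA12, TKTL1 and DPPA2 were thus on in HepG2S3 and not in HepG2S1, with 1 library of HepG2S1 as the only measure of that line. SOHLH2, a transcription factor of early germ cells, was on in U10 (1.27 CPM) and U100 (1.14 CPM), from 0.344 CPM (4 counts) in UWB1.289, 3.68-fold (1.14 to 15.5) and 3.32-fold (1.06 to 13.8). It overlaps the gene CCDC169-SOHLH2 on the same strand, and reads that fall on both are not counted, so that its levels are uncertain.

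HepG2S3 and HepG2 were compared over all genes with edgeR's quasi-likelihood test. Of 16929 genes tested, 31.4% were called higher and 32.1% lower at a Benjamini-Hochberg adjusted p under 0.05. Of the 33 genes, 8 were called higher and 1 lower, and 22 had too few counts to enter the test. A gene at 0 in HepG2 can only have entered it through HepG2S3, so these numbers do not describe the set as a whole. The 8 were MAGEA1 (adjusted p = 3.8e-05), PRSS21 (4.4e-05), MAGEB2 (6.6e-05), PRAME (8.0e-04), TKTL1 (8.8e-04), DPPA2 (0.00107), MAGEA12 (0.00115) and SOHLH2 (0.0032). Of those with counts in both HepG2 libraries, PRAME had a log2 fold change of 6.43 ± 0.66 (SE, n = 2 libraries a line, edgeR; 5.59 without HepG2 replicate 2 and 8.79 without replicate 1) and SOHLH2 one of 3.77 ± 0.58. SOHLH2 stayed off, at 0.625 and 0.424 CPM in HepG2S3 against 1 count in each HepG2 library. SYCP3 was lower (-1.17 ± 0.39, edgeR adjusted p = 0.0451), with 2.21 and 1.32 CPM in HepG2 and 0.812 and 1.14 CPM in HepG2S3. For PIWIL2 and BRDT the edgeR test gave adjusted p = 0.173 and 0.434. Without HepG2 replicate 2 PIWIL2 was called by edgeR (-1.09), and SYCP3 lost its call without HepG2 replicate 1 or either HepG2S3 library. Each of these fits leaves 1 library of a line, with no measured spread of it.

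In HCC4006ER against HCC4006P1, 25.8% of 16261 genes were called higher and 24.5% lower. Of the 33 genes, 2 were called higher and 5 lower, and 23 did not enter the test. MAGEA6 and PRSS21, at or near 0 in HCC4006ER, can only have entered through HCC4006P1, and MAEL only through HCC4006ER. These numbers thus do not describe the set as a whole. MAEL (3.36 ± 0.48, edgeR adjusted p = 0.00139) and BRDT (1.04 ± 0.35, 0.0458) were higher. PRSS21 (-7.31 ± 0.55, 5.3e-05) and PRAME (-1.42 ± 0.15, 3.4e-04) were lower by edgeR, and so were MAGEA12 (-4.47), MAGEA6 and PIWIL2 (-1.35). For MAGEA12, MAGEA6 and PIWIL2, HCC4006P1 was 1 library, so that no spread of that line was measured. Their edgeR tests rested on a spread shared over genes, and those p-values are not given here. The libraries of PIWIL2 were 1.44 CPM against 0.810 and 0.462 CPM. DDX43 (adjusted p = 0.118), STK31 (0.756) and SYCP3 (0.585) did not pass the edgeR test. PIWIL2 lost its call in DESeq2 (adjusted p = 0.34). MAEL and BRDT were low on both sides, and BRDT lost its call under every library left out (adjusted p 0.063 to 0.37, edgeR). Without HCC4006P1 replicate 1, which leaves that line 1 library and no measured spread, DDX43 (0.83) and STK31 (0.69) gained a call by edgeR. Nothing is read from these 2 calls.

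The change in HCC4006ER was also tested against that in HepG2S3, by an interaction term in edgeR. Of the 33 genes, 17 entered. A gene at 0 in a line can only have entered through the lines where it was higher, so the numbers of calls do not describe the set as a whole. The test used HCC4006P1 replicate 2 alone on that side. It called 24.3% of 19770 genes higher and 24.2% lower in the HCC4006 pair, and 0 of the 33 genes higher and 6 lower (MAGEA3, MAGEA6, MAGEA12, MAGEB2, PRAME and PRSS21). PRAME, PRSS21 and MAGEA12 were called in both pairs, in opposite directions.

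Resistant and parental lines were also compared over the 7 parental lines, with the resistant lines of a parent summed. The edgeR test called 0% of 15847 genes higher and 0% lower. At an unadjusted p under 0.05 it had 722 genes, and DESeq2 called 81 genes higher and 21 lower. Of the 33 genes, 7 entered the edgeR test and 0 were called, also at an unadjusted p under 0.05. Their log2 fold changes were 0.87 ± 0.86 for PRAME, 0.35 ± 0.56 for DDX43, 0.17 ± 0.36 for BRDT, 0.08 ± 1.91 for PRSS21, -0.13 ± 0.31 for STK31, -0.21 ± 0.35 for PIWIL2 and -0.36 ± 0.29 for SYCP3 (SE, n = 7 parental lines). PRSS21 had the widest error of the 7, and its direction was opposite in the liver and erlotinib pairs. Of the 7 parental lines, HCC4006P1 and HCC4006P2 are 2 stocks labelled HCC4006. With these summed to 1 line, the edgeR test also called 0 genes higher and 0 lower.

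Most other genes of these pathways had too few counts to be tested, and counts of calls below are of those that entered the test, where 31.4% of all genes tested were higher and 32.1% lower in HepG2S3, and 25.8% higher and 24.5% lower in HCC4006ER. Of 51 further cancer-testis genes, 8 were on in at least 1 line and 5 entered each test. In HepG2S3, 2 were called higher by edgeR (CSAG1, 0.00117, and CT83, a small X-linked antigen, 4.0e-04) and 2 lower (CABYR and TEX15). CT83 went from 0.0273 and 0 CPM in HepG2 to 5.28 CPM in HepG2S1 and 3.34 and 3.66 CPM in HepG2S3. TEX15, which acts with PIWI proteins in transposon silencing, had a mean of 9.60 CPM in HepG2, 0 in HepG2S1 and 0.0469 CPM in HepG2S3. In HCC4006ER, CABYR was called higher and ARMC3 lower by edgeR. TEX15 (log2 fold change 2.15) was also higher and CSAG1 (-3.86) lower. Both lie past the end of the counts in HCC4006P1 replicate 1. They were fitted with 1 HCC4006P1 library, so that no spread of that line was measured, and the same holds for such genes below.

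Of 17 further piRNA pathway genes, 5 entered the test in HepG2S3, with 3 higher and 1 lower, and 7 in HCC4006ER, with 4 higher and 1 lower. Of 26 further meiosis genes, 11 entered it in HepG2S3, with 4 higher and 3 lower, and 12 in HCC4006ER, with 1 higher and 3 lower. The cohesin REC8 was among those lower in HepG2S3 (5.00 CPM in HepG2, 0.380 CPM in HepG2S3) and SYCP2, the partner of SYCP3, among those higher (0.194 to 10.1 CPM). Of 8 widely expressed MAGE genes, 6 entered each test, with 1 higher and 4 lower in HepG2S3 and 3 higher and 1 lower in HCC4006ER.

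Of 20 listed names of factors that write or read the silencing of germline genes, 18 were matched, and UHRF1 was not. The 18 were on in all 17 lines, where 61.2% to 68% of protein-coding genes were on per line. SETDB1, named here because of its values, was near the threshold in PancB1Q (1.12 CPM) and PancB1V (1.57 CPM), against 15.2 CPM in PancVB. All 18 entered both tests. In HepG2S3, 8 of them were higher (31.4% of all genes were) and 2 lower (32.1%). DNMT1, the maintenance DNA methyltransferase, was higher (96.1 CPM in HepG2, 230 CPM in HepG2S3, edgeR adjusted p = 0.00175), and DNMT3A, a de novo methyltransferase, was lower (53.2 to 9.81 CPM, 0.001). In HCC4006ER, 4 were higher (25.8% of all genes) and 3 lower (24.5%), with neither of those methyltransferases among them. TET1, which oxidizes methylated cytosine, was lower in HepG2S3 (13 to 0.463 CPM) and higher in HCC4006ER (7.78 to 17.9 CPM), the 1 called of 3 TET genes in each pair. The part of any of these factors in the levels of the 33 genes was not tested.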

How the data were processed

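Gene counts of 21 libraries were used. Per the labels, all libraries were made with a stranded mRNA kit and were mapped to hg19 with Bowtie and TopHat, sorted with SAMtools and counted with HTSeq, while the study's methods also describe a 3′ kit, for which levels per kilobase of exon would not hold. The strand setting of HTSeq is not given in the sources used here. The authors deposited one count of reads per gene and library, without normalization. Reads on no gene, ambiguous or not unique made up 28% to 42.8% of the reads in a file and were left out of library totals. Symbols and positions came from GENCODE on GRCh37, which matched 45100 (84.3%) of the genes.

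CPM used the total on genes, log2 differences log2(CPM + 1), and intervals a confidence level of 95% (Wilson for levels, exact binomial for ratios). In HCC4006P1 replicate 1, 0 of 1679 genes past the end of its counts that had at least 50 counts in replicate 2 were counted, and its other CPM are raised by 22.1%. Genes past that point were fitted without this library, and p-values of both fits were adjusted together. Tests used edgeR 4.0.16 (quasi-likelihood test, TMM, filterByExpr) and Benjamini-Hochberg over all genes tested. The difference between the HCC4006 and HepG2 pairs was an interaction term over 7 libraries. The scripts were tested on simulated data. Alternatives used DESeq2 1.42.0, no filter, other thresholds, TMM-scaled CPM, the replicate block and each library left out. R 4.3.3, Python 3.11.15, pandas 2.3.3 and matplotlib 3.10.9 were used.

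Replicate libraries differed beyond counting error (chi-square per degree of freedom 5.3 to 87.6), so none was a duplicate. The labels give both HepG2 libraries one replicate number and both HepG2S3 libraries another, so letters A and B were used as numbers. The genes and lists were chosen with earlier results of these data known. Values per library were given for genes called by edgeR, genes that switched by at least 2, and the 3 highest per kilobase of exon, and the others by their range. Genes of other lists were named where called by edgeR.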

Additional observations from a re-analysis of the deposited data

Results flagged for a closer look

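The resistant-minus-parental difference was compared between the HCC4006ER and HepG2S3 pairs by an interaction term in edgeR (7 libraries). The test was open to 17 of the 33 genes. Those at 0 in a line entered it only through lines where they were higher. Of the 33 genes, 6 differed, all lower in the HCC4006 pair. Over all 19770 genes tested, 24.3% were called higher and 24.2% lower in that pair. Differences of differences in log2(CPM + 1) were -9.77 for PRSS21 (adjusted p = 3.2e-06; -2.61 in HCC4006ER, 7.16 in HepG2S3), -6.67 for MAGEB2 (0.0013; -0.14 and 6.53), -6.10 for PRAME (1.1e-04; -1.38 and 4.72) and -4.82 for MAGEA12 (2.6e-05; -3.48 and 1.34). PRSS21, PRAME and MAGEA12 were thus called in opposite directions in the 2 pairs. MAGEA6 (-1.37, adjusted p = 0.017) and MAGEA3 (-0.68, 0.012) also differed by edgeR, on low counts and as near-copies whose reads may be split. The test used HCC4006P1 replicate 2 alone on the parental side, and the HepG2 side carries the marker differences given above. MAGEA1 was at 0 in both HCC4006 lines, so that its term could not be estimated, and no difference between the pairs is read for it.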

How the results depend on the processing

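At a threshold of 0.5 CPM, 122 combinations of gene and line were on instead of 79, and at 2 CPM there were 13 switches on instead of 20, of which 11 were also switches at 1 CPM and 2 were not (PRAME in PancB1Q and PancB1V). Leaving out libraries gave 79 to 80 on, 20 to 20 switches on and 8 to 9 switches off. TMM-scaled CPM gave the same 3 counts. For HCC4006ER, all 4 libraries as deposited gave 1673 genes higher and 1744 lower instead of 4201 and 3989. Leaving out a library gave 1989 to 5105 higher and 2026 to 5176 lower there (3 of these 4 fits cover only genes up to the end of the counts), 3567 to 6580 and 3737 to 6662 in HepG2S3, and 3439 to 5971 and 3522 to 5917 for the difference between the pairs. Over parental lines, leaving out a line gave 0 to 0, and DESeq2 gave 81 higher and 21 lower. With the replicate number as a block, HepG2S3 had 5279 genes higher and 5282 lower instead of 5308 and 5436, and HCC4006ER 3867 and 3916 instead of 3077 and 3181 on the same 12823 genes, where DDX43 was then called (0.60, edgeR adjusted p = 0.0085). Samples of a number correlated by 0.0525 and 0.47 in the 2 pairs and share only a number. Of 371 tests of single genes under alternatives, 346 kept direction and side of the threshold, 17 lost the call, 8 gained one and 0 reversed. BRDT, PIWIL2 and SYCP3 lost theirs under DESeq2, BRDT also in every leave-out, and MAGEA12 with all 4 libraries as deposited (edgeR adjusted p = 0.49). In that setting the missing value of MAGEA12 in HCC4006P1 replicate 1 was taken as 0. MAGEA6 lost the call of the difference between pairs without a HepG2S3 replicate. The cause of the other lost calls was not tested. With 1 library in 13 lines, those levels carry counting error only, and 0.305 CPM is the smallest detected level in HepG2S1.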
